A study of Mus musculus with 15 samples.

Results

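The nuclear-encoded respiratory chain genes were taken as all protein-coding genes outside the mitochondrial chromosome whose GENCODE M21 name begins with Nduf, Uqcr, Atp5, Sdha, Sdhb, Sdhc, Sdhd or Cox4 to Cox8. This rule gave 98 gene records with 97 names (Atp5o has a second, read-through record) of 21938 protein-coding genes. Of these, 50 held at least 1 crosslink site of TTP or TTP-AA on the sense strand, 35 held such a site in the 3′UTR, and 48 held none. Together they contained 643 of the 162273 sites in the 6 lists.

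TTP (tristetraprolin) is a zinc finger protein that binds AU-rich elements in the 3′UTR and recruits deadenylases to the mRNA. Its binding was mapped by iCLIP, in which UV light fixes the protein to RNA and reverse transcription stops 1 nucleotide from the crosslink, so that each site carries a number of unique cDNAs. All 15 libraries came from macrophages grown from the bone marrow of TTP-deficient C57BL/6 mice, immortalised with the human c-myc and HRas G12V oncogenes and transduced with a retroviral, doxycycline-inducible vector for the coding sequence of GFP-TTP or of GFP-TTP-AA, in which serines 52 and 178, the sites phosphorylated by the kinase MK2, are alanines. GFP-positive cells were sorted, received 6 h of doxycycline in every group, and the tagged protein was captured with a GFP nanobody. GFP-TTP was mapped without LPS (2 libraries), after 1 h of LPS (4 libraries) and after 4 h of LPS (2 libraries), and GFP-TTP-AA under the same conditions (2, 3 and 2 libraries). Both proteins carry the GFP tag and were expressed from the vector, not from the Zfp36 locus. The libraries of a group had been summed before deposit, so no spread between replicates can be given, and every test below compares pooled lists and not conditions. mRNA levels are not part of these files, so more cDNAs on a 3′UTR cannot be told apart from more mRNA.

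The respiratory chain transfers electrons from NADH (complex I) and succinate (complex II) through complexes III and IV to oxygen, and complex V uses the resulting proton gradient to make ATP. Most subunits are encoded in the nucleus, translated in the cytosol and imported into mitochondria, and their mRNAs are abundant, short and long-lived. Macrophages are known to lower respiration in favour of glycolysis after LPS.

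The lists differed in depth, with 19167 to 174397 cDNAs in all and 906 (TTP, 4 h) to 93510 (TTP-AA, 1 h) cDNAs in 3′UTRs. Of 8 macrophage marker genes, 7 held exonic cDNAs (504 in all, for example 300 in Lyz2 and 85 in Itgam), and 0 of 6 markers of other cell types did. Outside the lists at 1 h, Lyz2 alone held any, with 8 for TTP without LPS and 7 for TTP at 4 h. Macrophage identity was therefore visible in the sites at 1 h and not in the 4 other lists. The 2 lists at 1 h carry a peak calling mark in their headers that the 4 other lists lack, so that time and peak calling cannot be told apart.

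The 3′UTRs of the members are short. Their median length was 235 nt, against 960.5 nt over all 21028 protein-coding genes with a 3′UTR, and 47 of 97 members (48.5%) held the AU-rich core AUUUA (in DNA letters ATTTA, searched on the sense strand), against 65.2% of all genes. Per length the core was about as frequent, with 2.19 per kb in the members and 1.93 per kb in all 3′UTRs. The longer core UAUUUAU, which overlaps AUUUA, occurred in 8 members (8.25%) and in 27.6% of all genes. To show what TTP and TTP-AA crosslinked to, the 30-nt stretch with the most cDNAs over the 6 lists is printed for 8 members, read 5′ to 3′ from GENCODE M21 transcripts (GRCm38/mm10), with every ATTTA in capitals. The uppermost 4 hold the AU-rich core and the lower 4 do not. The 8 were chosen as examples of both kinds and not by rank, so the even split says nothing of the other members. Among those not printed, the stretch of Atp5a1 (39 3′UTR cDNAs) holds the core and that of Cox5a (25) does not.
Cox7a2, chr9:79755437-79755466, minus strand: tttggggatcaatATTTAttgatgtgtatt
Uqcrfs1, chr13:30540615-30540644, minus strand: ttgATTTAaaatATTTAagaattgttaata
Ndufs1, chr1:63143709-63143738, minus strand: atgtaatATTTAaagttatactatgcttat
Ndufa6, chr15:82350192-82350221, minus strand: tgcatgttaatATTTAactagagtataaat
Atp5g3, chr2:73908483-73908512, minus strand: gtagtactggtgtcatggaaatatatgtta
Sdhc, chr1:171129207-171129236, minus strand: tttaatgtcatattttctaatctaaattct
Cox6c, chr15:35932017-35932046, minus strand: actatgaaacatgaatatgtgtgggctaag
Ndufa4, chr6:11900408-11900437, minus strand: gaaatcatgttgattttttttttttttgga
These stretches held 110 of the 122 3′UTR cDNAs of Cox7a2, 30 of 53 in Uqcrfs1, 20 of 39 in Ndufs1, 11 of 14 in Ndufa6, 20 of 33 in Atp5g3, 20 of 25 in Sdhc, 12 of 22 in Cox6c and 20 of 20 in Ndufa4. All 8 lie in the 3′UTR.

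The TTP-AA list at 1 h, also the deepest list, held the most member cDNAs. The 3′UTRs of the members held 20 cDNAs for TTP and 53 for TTP-AA without LPS, 35 and 490 at 1 h, and 0 and 14 at 4 h. In the same order 4 and 8, 10 and 33, and 0 and 3 of the 97 members with a 3′UTR had a site there. With sites of at least 2 cDNAs alone, the counts at 1 h were 2 members (2.06%) for TTP and 22 (22.7%) for TTP-AA, against 1.98% and 12.9% of all genes. At 1 h, 34.0% of the members had a 3′UTR site in the TTP-AA list (Wilson 95% interval 25.4 to 43.9%) and 10.3% in the TTP list (5.70 to 17.9%), against 21.2% and 6.16% of all protein-coding genes. These and all later intervals cover counting error only. The set of all genes, here and below, was not limited to genes expressed in these cells. The TTP-AA to TTP ratio of member 3′UTR cDNAs at 1 h was 14 (95% interval 9.95 to 19.7), and that of all 3′UTR cDNAs was 9.78 (9.58 to 9.99). The members therefore held 0.524% (0.480 to 0.572%) of all 3′UTR cDNAs with TTP-AA and 0.366% (0.263 to 0.509%) with TTP at this time. The difference was not tested, since cDNAs of 1 gene are not independent. In the smaller lists the member share was 0.458% (TTP) and 0.882% (TTP-AA) without LPS, and 0% and 1.40% at 4 h, the last from 14 cDNAs in 3 genes. Per kb of 3′UTR they held 9.26 cDNAs in the TTP-AA list at 1 h, against 3.00 over all genes, 5.09 in the 87 cytosolic ribosomal protein genes and 33.0 in the 26 vacuolar proton pump genes.

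**Figure D1:**
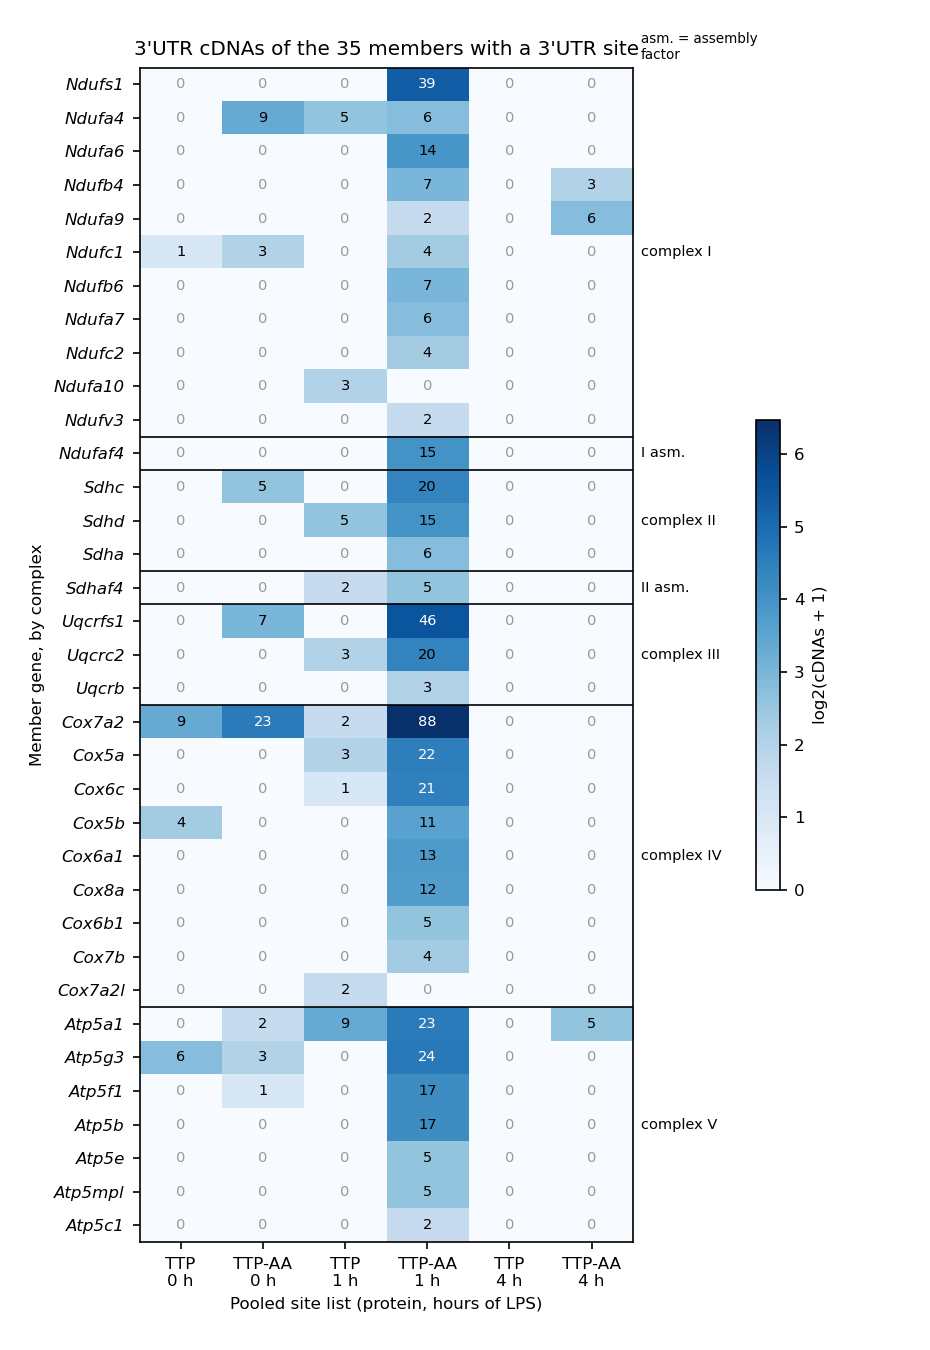
Unique cDNAs in the 3′UTR of each of the 35 members with a 3′UTR site (rows, by complex) in the 6 pooled lists (columns); numbers are cDNAs and the shade is log2(cDNAs + 1). The TTP-AA list at 1 h holds sites in 33 of the 35 members and up to 88 cDNAs in 1 gene (Cox7a2), and the TTP list at 4 h holds none.

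Of the 35 members, 25 had a 3′UTR site in the TTP-AA list and not in the TTP list at 1 h, 8 had sites in both, and 2 (Ndufa10 with 3 cDNAs and Cox7a2l with 2) only in the TTP list. The 8 shared members were 24.2% of those bound by TTP-AA and 80% of those bound by TTP, near the 25% and 86.3% over all genes. All 8 members bound by TTP-AA without LPS were bound by it again at 1 h, as were 88.6% of all genes that it bound without LPS. Binding was uneven: Cox7a2 held 88 of the 490 cDNAs in the TTP-AA list at 1 h, and Cox7a2, Uqcrfs1 and Ndufs1 together held 173 (35.3%). The median bound member had 11 cDNAs there, and the median over all 4468 bound genes was 8.

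In the paragraphs by complex, cDNAs of single members are those in the 3′UTR unless another region is named. Complex I was the largest of the 5 complexes and had the lowest share of bound members, with a 3′UTR site in 10 of its 38 members (26.3%) in the TTP-AA list at 1 h. Ndufs1, the large iron-sulfur subunit of the electron input module, had 39 3′UTR cDNAs in that list and 0 in the 5 others, and Ndufa6, an accessory subunit, had 14 and 0. Ndufa4, which is named after complex I but is found with complex IV, had another pattern, with 9 cDNAs for TTP-AA without LPS, then 5 (TTP) and 6 (TTP-AA) at 1 h in the 3′UTR, and none there in the remaining lists. The 3′UTR sites of Ndufa4 lay within nt 101 to 123 after the stop codon in all 3 lists that held them, on and beside the run of T printed above. Ndufb4 and Ndufa9, both accessory subunits, were among the 3 members bound by TTP-AA at 4 h, with 3 and 6 cDNAs, after 7 and 2 at 1 h. Of the 8 complex I assembly factors, which are not part of the finished complex, Ndufaf4 alone had 3′UTR sites, with 15 cDNAs in the TTP-AA list at 1 h.

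Complex II, which is also the succinate dehydrogenase of the citric acid cycle, had 3′UTR sites in 3 of its 4 members. Sdhc, a membrane anchor subunit, had 5 cDNAs for TTP-AA without LPS and 20 at 1 h, and none for TTP at any time. Its sites fell between nt 527 and 593 of a 3′UTR of 2636 nt, in both TTP-AA lists. Sdhd, the other membrane anchor, had 5 cDNAs with TTP and 15 with TTP-AA at 1 h, and Sdha, the flavoprotein that oxidises succinate, had 6 for TTP-AA at 1 h. Sdhb, the iron-sulfur subunit, had 2 cDNAs in the coding sequence and none in the 3′UTR. The assembly factor Sdhaf4 had 2 and 5 cDNAs for TTP and TTP-AA at 1 h.

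In complex III, 3 of 8 members had 3′UTR sites. The Rieske iron-sulfur subunit gene Uqcrfs1 had 7 cDNAs for TTP-AA without LPS and 46 at 1 h, and none in any TTP list. Its 7 sites without LPS lay at nt 92 to 100, on the paired ATTTA printed above, and the 30 sites at 1 h spread over nt 87 to 208 of 423 nt. Uqcrc2, a core subunit, had 3 cDNAs for TTP at nt 231 to 234 and 20 for TTP-AA at nt 59 to 198, both at 1 h, so its sites in the 2 lists did not overlap.

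Complex IV held the most 3′UTR cDNAs (220 over the 6 lists), and 8 of its 18 members (44.4%) had a 3′UTR site in the TTP-AA list at 1 h. Cox7a2 encodes the widely expressed form of a small accessory subunit. It was the only member with 3′UTR sites in all 4 lists without LPS and at 1 h, with 9 cDNAs for TTP and 23 for TTP-AA without LPS and 2 and 88 at 1 h. It ranked 27 of 894 bound genes for TTP-AA without LPS and 139 of 4468 at 1 h by 3′UTR cDNAs. The stretch printed above held 9 of 9, 22 of 23, 2 of 2 and 77 of 88 of these cDNAs, and the remaining sites at 1 h included several near the stop codon. Cox5a and Cox6c, other structural subunits, had 22 and 21 cDNAs for TTP-AA and 3 and 1 for TTP at 1 h. Cox6a1, Cox8a and Cox5b had 13, 12 and 11 3′UTR cDNAs for TTP-AA at 1 h and 0 for TTP, and Cox5b had a further 4 for TTP without LPS.

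In complex V, the ATP synthase, 7 of 18 members had a 3′UTR site for TTP-AA at 1 h. Atp5g3, which encodes the c subunit of the rotating ring, had 6 3′UTR cDNAs for TTP and 3 for TTP-AA without LPS, all between nt 101 and 110 after the stop codon, and 0 and 24 at 1 h. Atp5b, the catalytic beta subunit, had 17 cDNAs for TTP-AA at 1 h, as had Atp5f1, the b subunit of the stalk, and both had none for TTP. Atp5a1, the alpha subunit, had 2 cDNAs for TTP-AA without LPS, 9 (TTP) and 23 (TTP-AA) at 1 h, and 5 for TTP-AA at 4 h. The place of most binding in Atp5a1 differed between lists. TTP at 1 h was at nt 52 to 177 of the 487 nt, with at most 2 cDNAs at a site. Of the 23 TTP-AA cDNAs at 1 h, 18 were at nt 235 to 264, but the sites ranged from nt 29 to 301 and so spanned those of TTP. TTP-AA without LPS was at nt 248, and TTP-AA at 4 h was at nt 448 to 463.

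**Figure D2:**
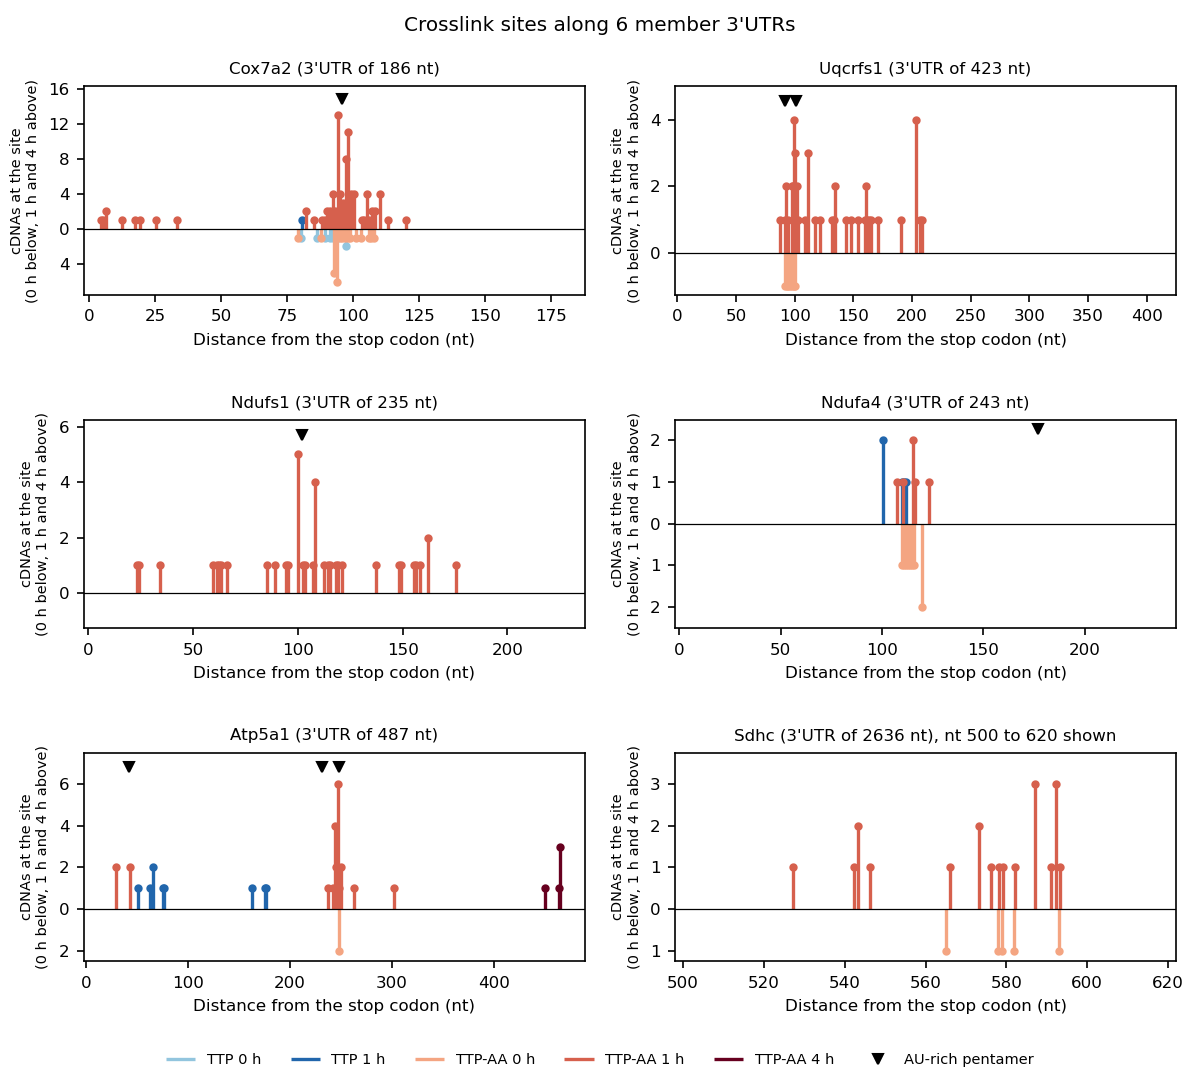
Crosslink sites along the 3′UTR of 6 members, by distance from the stop codon in nt (horizontal) and unique cDNAs at the site (vertical, with lists without LPS below the line and those at 1 h and 4 h above); triangles mark AUUUA. Cox7a2, Ndufa4 and Sdhc were crosslinked in overlapping stretches in each list with sites, whereas in Atp5a1 TTP at 1 h (nt 52 to 177) and TTP-AA at 4 h (nt 448 to 463) lay apart.

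Which members shifted between TTP and TTP-AA was tested gene by gene with a two-sided Fisher exact test of 3′UTR cDNAs against all other 3′UTR cDNAs of each list, adjusted by Benjamini-Hochberg over all genes with at least 10 such cDNAs. At 1 h, 18 members were among the 2065 genes tested. The minimum applied to the sum of both lists. Of the 18, 15 had 3 or fewer TTP cDNAs, as had 1530 of the 2065, and so entered through the deeper TTP-AA list. The higher TTP-AA count in all 18, and in 2049 of the 2065, cannot be told apart from depth and this minimum. None of the 18 members had a higher share in the TTP-AA list at an adjusted p below 0.05, where 1.99% of all genes tested did, and 2 had a higher share in the TTP list, where 4.41% did. The 2 were Atp5a1 (9 cDNAs for TTP and 23 for TTP-AA, ratio 2.56, 95% interval 1.20 to 5.42, exact test, adjusted p = 0.0340) and Ndufa4 (5 and 6, ratio 1.20, interval 0.389 to 3.70, adjusted p = 0.0340), whose ratios were below that of the lists as a whole. With coding and 5′UTR cDNAs added to the 3′UTR counts, Atp5a1 was no longer called and Cox7a2 was, with a higher share for TTP-AA, so that 2 of 20 members were called where 9.8% of all 2203 genes were. With each site counted once, Ndufa4 could not be tested (under 10 sites) and Atp5a1 was still called, 1 of 15 members where 5.63% of all genes were. Cox7a2 had the largest ratio of the members with a TTP cDNA, 44.0 (2 against 88 cDNAs, interval 11.9 to 163, exact test, adjusted p = 0.146). Uqcrfs1 had 46 and 0 (exact test, adjusted p = 0.161), or a ratio of 15.3 with 3 cDNAs put in place of the 0. The lists hold only sites retained by the authors' peak calling. A count of 0 therefore means that no site was retained, not that no cDNA was there, and 15.3 is not a lower limit. Of the 18, 11 had 0 cDNAs in the TTP list, as had 1140 of all 2065, and at this depth 39 against 0 in Ndufs1 gave an unadjusted p of 0.0471 and an adjusted p of 0.266.

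**Figure D3:**
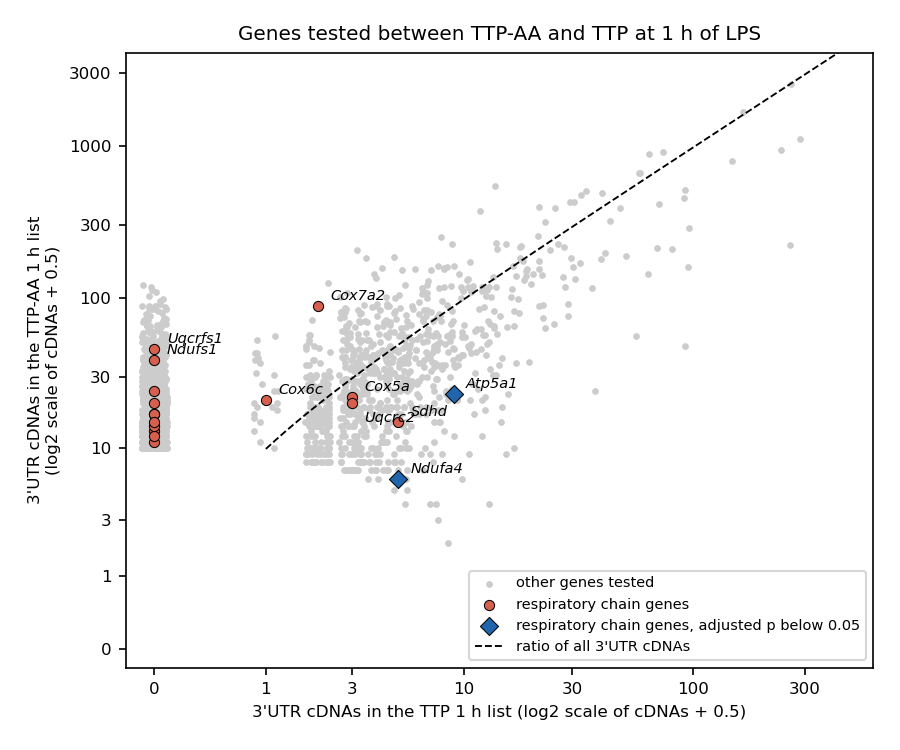
3′UTR cDNAs of the 2065 genes tested at 1 h in the TTP list (horizontal) and the TTP-AA list (vertical), both on a log2 scale of cDNAs + 0.5; other genes are shifted at random sideways for legibility, and the dashed line is the TTP-AA to TTP ratio of all 3′UTR cDNAs (9.78). Atp5a1 and Ndufa4 (diamonds) lie below the line, Cox7a2 above it, and 11 of the 18 members have 0 cDNAs for TTP.

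When the same counts were set against the cDNAs of every region of the list, 15 of the 18 members had a higher share in the TTP-AA list and none in the TTP list, where 84.9% and 0.436% of all genes tested did. Atp5a1, Ndufa4 and Sdhd were the 3 not called, with adjusted p of 0.390, 0.567 and 0.383. The members' count was thus near the background share, and most of these members had reached the minimum of the test through their TTP-AA cDNAs. Without LPS, Cox7a2 was the only member with enough cDNAs for the test, with a ratio of 2.56 (9 and 23 cDNAs, interval 1.20 to 5.42). Its adjusted p was 0.302 against other 3′UTR cDNAs, where 17.4% of 241 genes were called higher for TTP-AA, and 0.0406 against all cDNAs, where 24.5% were. At 4 h no member reached 10 cDNAs, and a count of 0 among the 906 3′UTR cDNAs of TTP allows a share of up to 0.331% by the limit of 3 counts. This limit holds for the retained sites alone.

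Member binding outside the 3′UTR was not alike in the lists. The 3′UTR took 20% of member cDNAs for TTP and 51.5% for TTP-AA without LPS, 47.3% (36.3 to 58.5%) and 80.9% (77.5 to 83.8%) at 1 h, and 0% and 29.2% at 4 h, against 42.2%, 53.2%, 36.4%, 85.0%, 13.8% and 18.3% of the cDNAs of all genes in the same order. Without the cDNAs of a small nuclear RNA gene described below, the member shares were 37.7% and 69.7% without LPS, 54.7% and 82.9% at 1 h, and 0% and 82.4% (14 of 17 cDNAs, 59.0 to 93.8%) at 4 h, and leaving out non-coding RNA genes inside all genes gave 44.9%, 55.5%, 37.4%, 85.6%, 13.9% and 18.9%. Coding sequence held 17 of 74 cDNAs of TTP and 63 of 606 of TTP-AA at 1 h, and 5′UTRs held 8, all of TTP-AA at 1 h. Ndufa4 had the most coding cDNAs, with 8 for TTP without LPS and, at 1 h, 6 (TTP) and 25 (TTP-AA), all of them 164 to 201 nt before the end of the 249-nt coding sequence. Ndufc2, a membrane arm subunit of complex I, had 15 coding cDNAs and 4 in the 3′UTR over the 6 lists, and Cox8a 7 and 12. Introns of Cox5a held 20 cDNAs and introns of Ndufaf2, an assembly factor gene, 14, the latter in 5 of the 6 lists.

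The read-through record of Atp5o spans chr16:91684398-91926982 on the minus strand, has no 3′UTR, and covers in an intron the small nuclear RNA gene Gm25245 (chr16:91921309-91921415). All 136 member cDNAs in non-coding RNA genes lay in Gm25245, with 47 and 27 for TTP and TTP-AA without LPS, 10 and 15 at 1 h, and 6 and 31 at 4 h. They are placed in the gene by position alone.

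**Figure D4:**
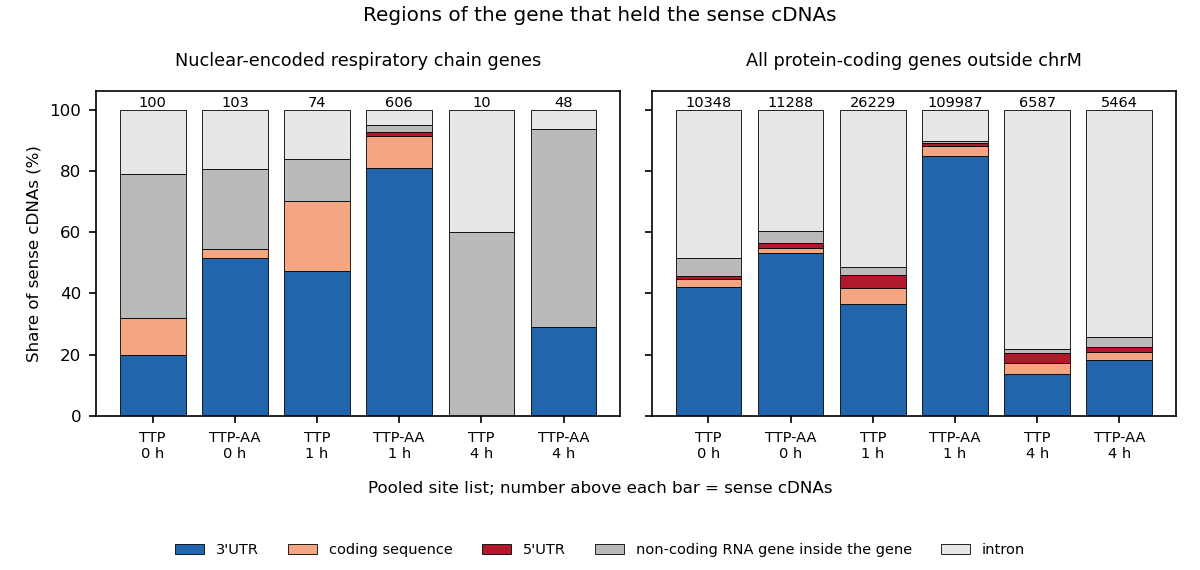
Share of sense cDNAs by region of the gene (vertical, %) in the 6 pooled lists (horizontal) for the respiratory chain genes on the left and all protein-coding genes on the right; numbers above bars are sense cDNAs. The 3′UTR takes 80.9% of member cDNAs for TTP-AA at 1 h, near the 85.0% of all genes, and the non-coding RNA part of the members is all Gm25245.

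The sequence near the sites was compared with that at all 3′UTR sites of the list, as a description, because sites of 1 gene share its sequence. At 1 h AUUUA lay wholly within 20 nt of 109 of 342 member sites for TTP-AA (31.9%, 27.2 to 37.0%), against 34.6% of all 3′UTR sites, and of 6 of 33 for TTP (18.2%, 8.61 to 34.4%), against 37.7%. Without LPS the order for TTP-AA was the opposite, with 23 of 41 member sites (56.1%, 41.0 to 70.1%) against 33.7% of all sites, and 33.3% with Cox7a2 left out. TTP without LPS had 8 of 17 (47.1%) against 45.7%, and TTP-AA at 4 h had 0 of 11 (0 to 25.9%) against 29.7%. By gene, 13 of the 33 bound member transcripts (39.4%) had AUUUA near a site for TTP-AA, against 56.9% of all bound transcripts. UAUUUAU was near 24 of the 342 TTP-AA sites (7.02%, 4.76 to 10.2%), against 16.0% of all sites, and near 0.323% once Cox7a2 was left out. In unstimulated cells all 8 TTP sites near AUUUA and 14 of the 23 TTP-AA sites near it were in Cox7a2. UGUGU, a second motif, was near 14.3% of member TTP-AA sites at 1 h, 8.71% without Cox7a2, and near 9.23% of all sites. For TTP at 1 h it was near 7 of 33 member sites (21.2%, 10.7 to 37.8%), 19.4% without Cox7a2, against 10.0% of all sites. The polyadenylation signal AAUAAA was near 8.77% (6.21 to 12.2%) of member TTP-AA sites at 1 h, against 5.13% of all sites. Without Cox7a2 the member value was 7.74% (5.26 to 11.3%). AAUAAA is also denser in the member 3′UTRs, with 2.23 per kb against 1.20 per kb in all 3′UTRs. Sdhc, Ndufa4 and Cox8a, whose 3′UTRs hold 7, 1 and 1 AUUUA, had no site within 20 nt of AUUUA in any list. Atp5g3, Cox5a, Cox6c, Cox6a1 and Cox5b had none either, but their 3′UTRs hold no AUUUA. These genes are examples, and further members with fewer cDNAs had no such site.

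**Figure D5:**
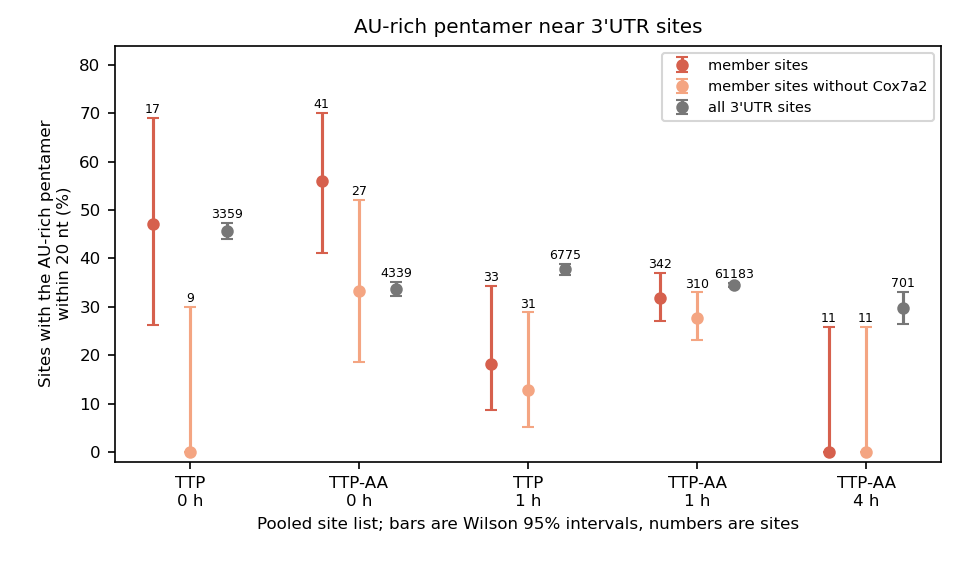
Share of 3′UTR sites with AUUUA wholly within 20 nt (vertical, %, Wilson 95% intervals) in 5 lists (horizontal) for the member sites, the member sites without Cox7a2, and all 3′UTR sites; numbers are sites, and TTP at 4 h is left out since it had no member site. Member sites lie near the level of all sites for TTP-AA at 1 h (31.9% and 34.6%) and below it for TTP at 1 h (18.2% and 37.7%).

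The position of the sites was counted from both ends of the 3′UTR. For TTP-AA at 1 h, 182 of 342 member sites (53.2%) were within 100 nt of the stop codon and 111 (32.5%, 27.7 to 37.6%) within the last 100 nt, against 7.47% and 18.2% of all 3′UTR sites. In short 3′UTRs, such as that of Cox7a2 (186 nt), the 2 windows overlap and a site can count in both. The last 100 nt made up 21.6% of the 3′UTR length of these members and 5.08% of that of all bound transcripts, and the first 100 nt made up the same shares. TTP at 1 h had 2 of 33 member sites (6.06%, 1.68 to 19.6%) in the last 100 nt, where they made up 23.9% of the length. Among TTP-AA sites at 1 h in 3′UTRs over 300 nt the share was 5.97%.

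How closely TTP and TTP-AA sites met was counted by distance along the transcript. At 1 h, of the 33 member sites of TTP, 4 (12.1%, 4.82 to 27.3%) were also TTP-AA sites at the same nucleotide and 15 (45.5%, 29.8 to 62.0%) had one within 15 nt, against 46.0% and 76.6% of all 3′UTR sites of TTP. Without LPS 13 of 17 (76.5%, 52.7 to 90.4%) had a TTP-AA site within 15 nt, against 41.5%, and 8 of the 17 were in Cox7a2. Of the 41 TTP-AA member sites without LPS, 38 (92.7%) lay within 15 nt of a TTP-AA site at 1 h, against 81.4% of all. The differences from all sites were not tested.

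The 62 members with a 3′UTR and no 3′UTR site had shorter 3′UTRs (median 192 nt) than the 35 with 1 (272 nt), and 24 of them (38.7%) held AUUUA, against 23 (65.7%). For Cox7c, a complex IV subunit with no site, 97.8% of the 30-nt stretches of its 3′UTR also occur in transcripts of other genes, and for Atp5l, a complex V subunit with no site, 38.5% do. Such shared stretches were absent from 48 of the 62 unbound and 30 of the 35 bound members, and the highest share among bound members was 10.5%. No member 3′UTR site counted here lay in an exon of another gene on its strand. Any site inside a longer 3′UTR of another gene had been given to that gene before this count.

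Pathway genes outside the name rule, 49 assembly factors, electron carriers and regulators, had 3′UTR sites in 12 (24.5%) for TTP-AA and 5 (10.2%) for TTP at 1 h. Of the 8 tested, none was called against other 3′UTR cDNAs, and 7 had a higher share for TTP-AA against all cDNAs. Cox17, a copper chaperone of complex IV, had the most, with 8 and 7 cDNAs for TTP and TTP-AA without LPS and 7 and 39 at 1 h. Lrpprc, which stabilises mitochondrial mRNAs, had 3 and 28 at 1 h. Of the ribosomal protein genes, 25 of 87 (28.7%) had a 3′UTR site for TTP-AA at 1 h, and of the vacuolar proton pump genes 12 of 26 (46.2%).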

How the data were processed

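The authors demultiplexed the iCLIP reads, collapsed PCR copies by 4 random barcode bases, aligned unique reads to mm10 (GRCm38, Ensembl 75) with Bowtie (version not given in the sources used here), and recorded the position just upstream of each read as the site. They then added up the libraries of each group and retained sites with FDR < 0.05 in iCount (100 permutations, 15 nt neighbourhood). The deposited values are a signed score per site, whose size is the count of unique cDNAs and whose sign is the strand; the authors applied no normalisation. None of the 15 iCLIP libraries is a GFP-only control.

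Sites were assigned on the sense strand to GENCODE M21, a later release than the authors used, in the order 3′UTR, coding sequence, 5′UTR, non-coding RNA gene inside the gene, intron; a 3′UTR site counted for the transcript with the longest 3′UTR. Analyses ran in Python 3.11.15 with scipy 1.17.1, and the test code was tested on simulated data. Ratio and share intervals are 95% intervals (Wilson for shares). The members and lists were chosen with earlier results of these data known. Genes named are those with at least 10 sense cDNAs in a list (21 genes), those called, the leading member of each group and the 5 with most cDNAs outside the 3′UTR; other names, Cox7c and Atp5l among them, were chosen after their values were seen. Alternatives varied the site minimum, the weighting of sites, the background and minimum of the test, and the windows around sites.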

Additional observations from a re-analysis of the deposited data

How the results depend on the processing

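No paired analysis was possible because the authors summed the replicates before deposit, so no replicate could be left out either. Of 63 alternative values for 22 results, 35 were classed as the same and 28 as moved. The first class was wide for counts. It takes in the fall from 33 to 22 members for TTP-AA at 1 h, although 22.7% lies below the interval given above (25.4 to 43.9%). With only sites of at least 2 cDNAs, members with a 3′UTR site without LPS fell to 2 for TTP and 4 for TTP-AA, and at 1 h to 2 for TTP and 22 for TTP-AA. Over 3′UTR, coding sequence and 5′UTR alone, the 3′UTR share of member cDNAs at 1 h was 67.3% for TTP and 87.3% for TTP-AA. Without non-coding RNA genes inside the gene, an alternative chosen after seeing the data, it was 37.7% and 69.7% without LPS and 82.4% for TTP-AA at 4 h. Without Cox7a2 the members held 0.430% of the 3′UTR cDNAs of TTP-AA at 1 h. Members called at 1 h numbered 15 against all cDNAs, 1 with a minimum of 20 cDNAs (Atp5a1, where 122 of 1155 genes were called) and 1 with each site counted once (5.63% of all genes); without LPS there was 1 against all cDNAs (Cox7a2) and 1 with a minimum of 5 cDNAs (Ndufa4, higher for TTP-AA, where 156 of 570 genes were called); at 4 h there was 1 with a minimum of 5 cDNAs (Ndufa9, of 2 members tested, where 51 of 78 genes were called), and none could be tested otherwise. AUUUA was near 45.5% of TTP member sites within 50 nt, and for TTP-AA near 20.5% within 10 nt, 43.0% within 50 nt and 40.8% weighted by cDNAs. In the last 50 nt lay 0% of TTP and 8.19% of TTP-AA member sites. The share in the last 100 nt was 20% (TTP) and 49.5% (TTP-AA) in 3′UTRs of at most 300 nt, 0% and 5.97% in longer ones, and 38.6% for TTP-AA weighted by cDNAs. TTP member sites met by TTP-AA at 1 h were 12.1% at the same nucleotide and 75.8% within 50 nt. A planned search for 30-nt matches in the genome was not run; restricting instead to sites whose next 30 nt occur in no transcript of a gene elsewhere, chosen after seeing the data, left the member share at 0.372% (TTP) and 0.530% (TTP-AA).

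With libraries summed before deposit and no GFP-only control among the 15 libraries, counts of 1 to 3 cDNAs, as for most members in the TTP list at 1 h, do not tell the genes apart.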
